A study of Homo sapiens with 6 samples.

Results

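The proteasome subunit genes were followed in CAOV2 cells, a human ovarian cancer cell line, after knockdown of YAP. They were chosen by gene symbol, as protein-coding genes named PSMA, PSMB, PSMC, PSMD, PSME, PSMF or PSMG plus a number, and 45 of the 17211 listed genes met the rule. No measured value entered the rule, but the family was picked with results of this comparison in view, so the family's counts are a description. Pseudogenes and antisense genes were dropped, PSMC3IP and PSME3IP1 are named for partners of subunits and were dropped too, and PSMA8, PSMB3 and PSMB11 were not analysed here. Poly(A) RNA-seq was done on 3 libraries of cells transfected with an siRNA reagent against YAP (siYAP) and on 3 libraries of cells transfected with a non-targeting siRNA (siNT). Both groups were CAOV2 cells that received 100 pmol of siRNA with 6 µL of a lipid carrier over 2 days, with collection on day 3. Since each siRNA had its own supplier, effects of losing YAP and of the siRNA itself cannot be told apart. This is 1 cell line, which the titles also call primary, and the labels speak of biological replicates without saying whether these were separate passages or days. The p-values therefore measure the spread between these libraries, which may be technical.

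The proteasome is the protease that degrades proteins tagged with ubiquitin. Its 20S core is a barrel of alpha rings, which gate the entrance, around beta rings, which carry the catalytic sites. The 19S cap, made of a base with a ring of ATPases and a lid, binds ubiquitin chains, removes them and unfolds the substrate. Immunoproteasome subunits, induced by interferon, replace the catalytic beta subunits and favour peptides for MHC class I. In human cells with impaired proteasomes, the transcription factor NFE2L1 raises the subunit genes together. YAP is a transcriptional co-activator held in check by the Hippo kinases, and the comparison asks how transcripts differ between cells with and without it.

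The deposited values are read counts divided by 1 size factor per library, called normalized counts here, and rest on 25478595 to 31790340 reads per library over the listed genes. YAP1 itself, the target of the reagent, had 278, 327 and 294 normalized counts in the siYAP libraries, against 6221, 5801 and 5955 in the siNT libraries. Its mean in siYAP was 5.00% of that in siNT, with a log2 fold change of -4.32 ± 0.059 (SE; limma, adjusted p = 1.00e-22). WWTR1, the gene of the YAP paralog TAZ, was lower too, at 56.4% of its siNT mean. Of 10 ovarian carcinoma markers, 8 were listed, with summed levels of 62326 to 67338 normalized counts in siYAP and 82648 to 89600 in siNT. Keratins KRT8, KRT18 and KRT7 made up most of these sums. The list split, with KRT7 and KRT18 lower, CDH6 (log2 fold change 1.37) and EPCAM (0.74) higher and 4 not called. PAX8 averaged 17.1 ± 4.26 normalized counts in siYAP and 28.8 ± 13.9 in siNT, MUC16 averaged 14.2 ± 4.28 and 11.9 ± 3.67, and WT1 and ESR1 had no matched row. Fibroblast markers, with 4 of 5 listed and DCN without a row, summed to 9916 to 10523 in siYAP and 4012 to 4662 in siNT, nearly all of it LUM. Of these 4, LUM and PDGFRB were called higher, and COL1A2 (log2 fold change -2.60) and COL1A1 (-0.21) lower. COL1A2 and PDGFRB were near the floor. COL1A2 averaged 1.25 ± 0.487 normalized counts in siYAP and 12.6 ± 2.69 in siNT, and PDGFRB 19.7 ± 4.33 and 10.1 ± 4.70. The call of COL1A1 was lost without siYAP replicate 1 (adjusted p = 0.0604), siYAP replicate 3 (0.139) or siNT replicate 3 (0.0876), and that of PDGFRB without siYAP replicate 2 (0.104) or siNT replicate 3 (0.137). The 1 endothelial marker listed of 4, ESAM, averaged 1296 ± 39.2 normalized counts in siYAP and 1774 ± 99.9 in siNT.

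Transcripts of the proteasome were lower in siYAP cells across most of the complex, by modest amounts, while 2 of the 3 immunoproteasome subunits were higher. Of the 45 members, 28 fell and 4 rose at a Benjamini-Hochberg adjusted p under 0.05 (limma over all 17200 tested genes), and 13 did not pass the test. All 45 members passed the filter on low values. Among all tested genes, 28.1% fell and 28.6% rose, against 62.2% and 8.89% of the members. Subunit genes are well expressed, and 35 members averaged 1000 or more normalized counts, of which 24 fell and 1 rose, PSMD7. Among the 6348 genes at that level, 43.3% fell and 29.2% rose. The counts by subcomplex below stand beside these shares and those of all tested genes. The median log2 fold change, siYAP over siNT, was -0.18 over the members and 0.00 over all tested genes. For all genes, the median and the no-overlap shares below were not also taken over those averaging 1000 or more. Genes at that level fell more often than they rose, so level may account for a part of these contrasts, which was not tested. All siYAP libraries lay below all siNT libraries for 30 members and above them for 4, while this held for 30.6% and 30.9% of all tested genes. The members' reads made up 0.572, 0.563 and 0.562% of the listed reads in the siYAP libraries, against 0.637, 0.640 and 0.641% in the siNT libraries. The 2 groups' shares did not overlap. In bulk RNA, fewer cells expressing a gene and less RNA per cell cannot be told apart.

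**Figure D1:**
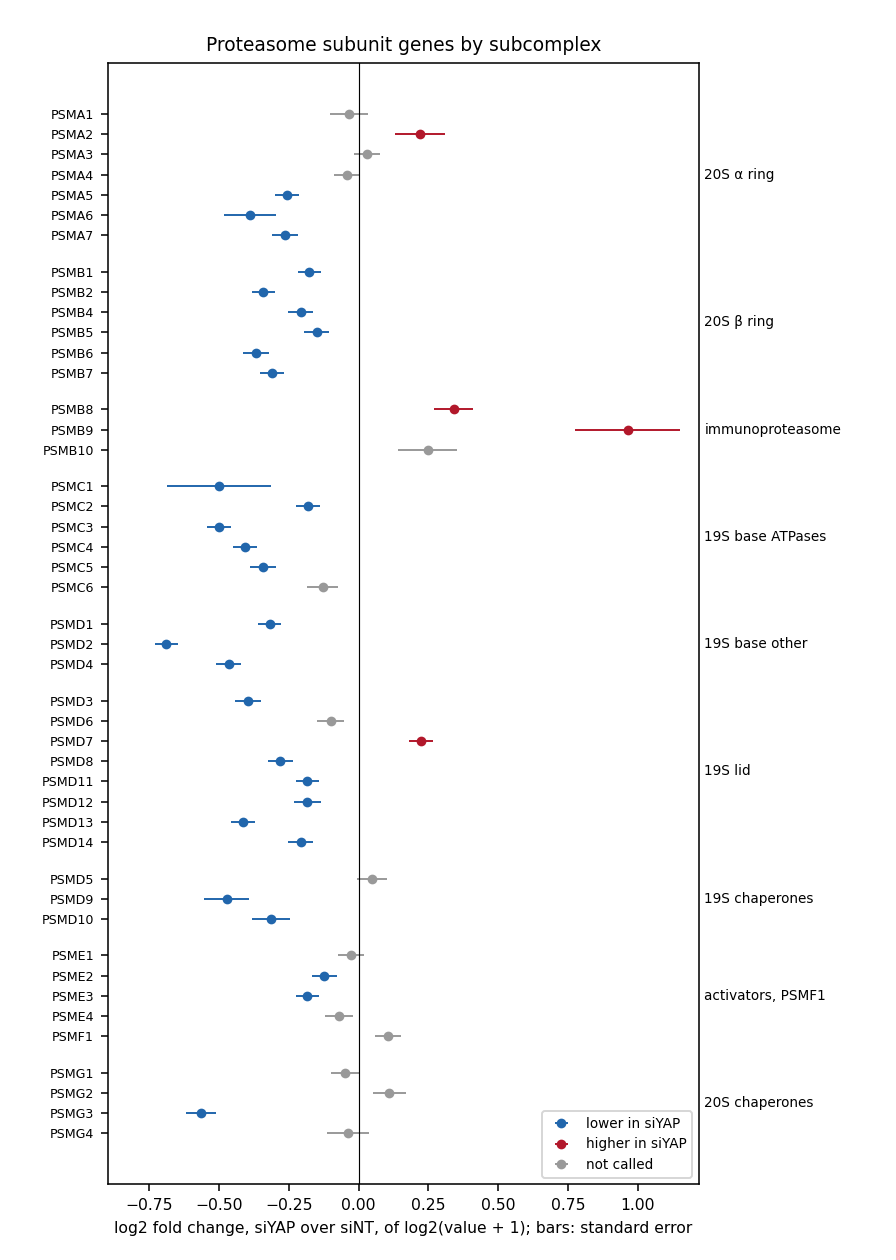
Log2 fold change of each of the 45 members, siYAP over siNT, with bars for the standard error, grouped by subcomplex on the vertical axis, with the call of each gene by colour. PSMD2 stands lowest at -0.69 and PSMB9 highest at 0.96, and most subunits of the 19S cap and the constitutive beta ring lie left of 0.

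**Figure D2:**
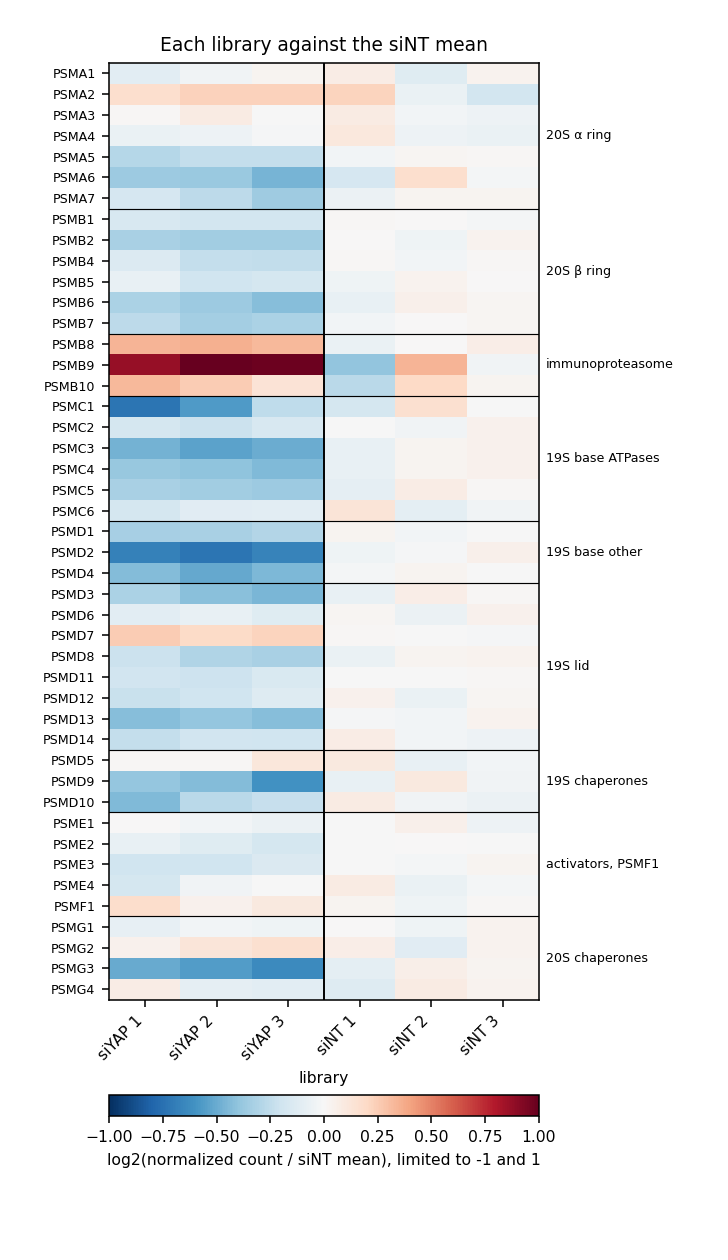
Value of each member in each of the 6 libraries, as the log2 of its normalized count over the gene's siNT mean, by colour, with siYAP libraries left of siNT libraries and genes grouped by subcomplex. The lower values of the base and beta ring genes are shared by all 3 siYAP libraries, and PSMB9 is above its siNT mean in all 3.

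These counts depend in part on how libraries are set to 1 scale. The listed genes sum to 28652879 to 28808397 normalized counts in siYAP libraries and 30291799 to 30788706 in siNT libraries. When every library was scaled to the same total instead, the median over all genes moved to 0.09 and the members' median to -0.10. Then 22 of 45 members fell and 9 rose, while of all 17200 tested genes 3700 fell and 6050 rose. The counts at equal totals were not split by expression level. Of all called genes 62.1% rose in place of 50.4%. PSMB1, PSMB5, PSMC1, PSMC2, PSMD12 and PSME2 were no longer called, and PSMA3, PSMB10, PSMD5, PSMF1 and PSMG2 were then called higher. No member called in the authors' scaling changed direction in this or any other setting.

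**Figure D3:**
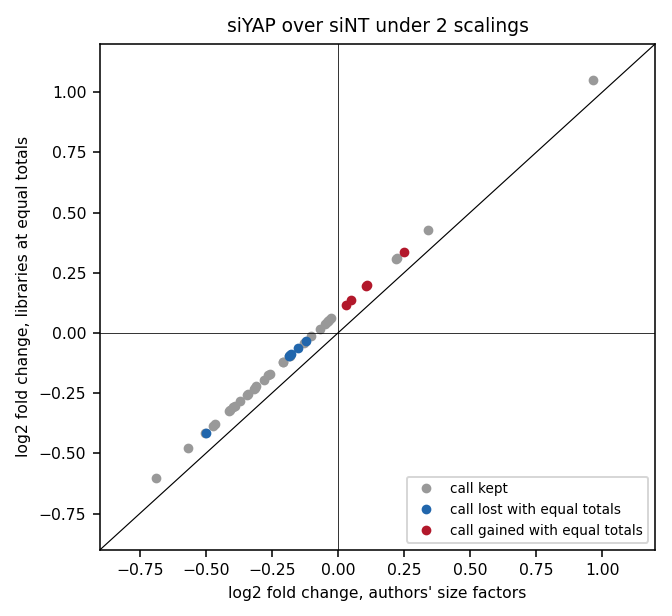
Log2 fold change, siYAP over siNT, of each member with the authors' size factors (horizontal axis) and with libraries at equal totals (vertical axis), coloured by whether the call was kept, lost or gained. Points lie above the diagonal, the median being -0.18 on the horizontal axis and -0.10 on the vertical axis.

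Promoter sequences are shown for 6 members picked after their values were seen, so that the letters upstream of genes that rose and fell can be compared. PSMB8, PSMB9 and PSMD7 are 3 of the 4 members that rose, PSMD2 and PSMC3 fell most among the scaffolds and the ATPases of the base, and PSMD3 fell and holds the most matches of the 6. RefSeq windows on GRCh38.p14, 250 bases before to 50 after a start, were available here for 39 of the 45 members and missing for PSMA7, PSMB1, PSMB6, PSMB7, PSMD4 and PSMG3. They were searched on both strands for the core of the antioxidant response element bound by NFE2L1 and NFE2L2 (TGACNNNGC), the CCAAT box bound by NFY (CCAAT) and the core of the interferon-stimulated response element (GAAANNGAA). Capitals mark matches, and no 2 different motifs shared bases. The windows are chr6:32843998-32844297 on the minus strand for PSMB8, chr6:32853942-32854241 on the plus strand for PSMB9, chr16:74296564-74296863 on the plus strand for PSMD7, chr3:184298991-184299290 on the plus strand for PSMD2, chr11:47426390-47426689 on the minus strand for PSMC3 and chr17:39980557-39980856 on the plus strand for PSMD3. PSMB8 and PSMD2 each have a second annotated start, whose window is not printed and holds none of these motifs.
PSMB8: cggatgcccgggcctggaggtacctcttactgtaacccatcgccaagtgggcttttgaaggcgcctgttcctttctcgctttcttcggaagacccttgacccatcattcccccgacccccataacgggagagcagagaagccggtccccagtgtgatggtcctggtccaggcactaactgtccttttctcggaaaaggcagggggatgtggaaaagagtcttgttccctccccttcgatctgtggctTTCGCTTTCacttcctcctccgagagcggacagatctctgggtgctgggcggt
PSMB9: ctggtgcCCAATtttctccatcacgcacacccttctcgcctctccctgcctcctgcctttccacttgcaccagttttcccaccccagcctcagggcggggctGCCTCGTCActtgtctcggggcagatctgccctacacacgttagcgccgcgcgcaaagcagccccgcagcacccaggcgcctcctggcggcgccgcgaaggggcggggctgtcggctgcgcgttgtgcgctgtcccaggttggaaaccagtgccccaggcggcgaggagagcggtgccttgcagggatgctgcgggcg
PSMD7: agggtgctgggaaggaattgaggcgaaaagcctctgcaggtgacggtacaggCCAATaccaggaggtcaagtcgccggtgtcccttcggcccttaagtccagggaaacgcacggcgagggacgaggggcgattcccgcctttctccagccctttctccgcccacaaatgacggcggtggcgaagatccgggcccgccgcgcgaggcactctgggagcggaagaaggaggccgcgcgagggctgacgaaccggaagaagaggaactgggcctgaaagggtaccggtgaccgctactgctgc
PSMD2: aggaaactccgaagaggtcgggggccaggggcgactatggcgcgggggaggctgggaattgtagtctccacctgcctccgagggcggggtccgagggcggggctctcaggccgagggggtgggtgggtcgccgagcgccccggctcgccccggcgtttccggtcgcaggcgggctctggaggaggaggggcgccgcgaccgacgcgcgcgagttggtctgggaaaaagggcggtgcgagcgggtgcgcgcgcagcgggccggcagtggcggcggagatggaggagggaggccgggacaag
PSMC3: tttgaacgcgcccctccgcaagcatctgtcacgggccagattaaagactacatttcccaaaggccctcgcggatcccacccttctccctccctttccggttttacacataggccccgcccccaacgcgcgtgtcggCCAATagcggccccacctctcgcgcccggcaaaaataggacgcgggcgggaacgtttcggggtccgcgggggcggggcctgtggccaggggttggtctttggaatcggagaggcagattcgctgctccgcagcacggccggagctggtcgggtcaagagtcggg
PSMD3: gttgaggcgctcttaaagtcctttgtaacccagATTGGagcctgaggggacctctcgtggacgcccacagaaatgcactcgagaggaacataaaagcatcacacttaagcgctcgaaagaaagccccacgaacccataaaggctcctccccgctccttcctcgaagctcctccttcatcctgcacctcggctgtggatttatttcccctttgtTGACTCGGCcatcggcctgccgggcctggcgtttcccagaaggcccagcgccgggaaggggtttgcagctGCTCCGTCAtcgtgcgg

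The printed PSMB8 window holds an interferon-type match that begins 3 bases before the start, while the window of its second start holds no match. In the PSMB9 window a CCAAT match begins 243 bases and an antioxidant-type match 148 bases before it. PSMD3 holds 2 antioxidant-type matches and a CCAAT match, PSMC3 and PSMD7 hold a CCAAT match each, and PSMD2, the member that fell most, holds none in this window. Over all members with a window, the antioxidant-type core was found in 14 of 39 (35.9%), against 16.1% of 27305 genes. These are all genes with a window, not limited to listed or protein-coding genes or matched for base content, so the 2 sets differ in kind. The CCAAT box was found in 18 of 39 (46.2%), against 39.7%, and the interferon-type core in 8 of 39 (20.5%), against 9.86%. Split by call, the antioxidant-type core was present in 7 of 22 members that fell, 1 of 4 that rose and 6 of 13 that did not pass. For the interferon-type core the counts were 3 of 22, 1 of 4 and 4 of 13, and for the CCAAT box 11 of 22, 3 of 4 and 4 of 13. A match is a description of letters and not a binding site.

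The base of the 19S cap, which contacts the core and drives unfolding, held the member that fell most. PSMD2 (ENSG00000175166, chr3:184298709-184309054 on GRCh38) encodes a scaffold of the base that docks the shuttle factors carrying ubiquitinated proteins. It had 11398, 10979 and 11460 normalized counts in the siYAP libraries, against 17615, 18079 and 18888 in the siNT libraries, and its log2 fold change was -0.69 ± 0.041 (SE; limma, adjusted p = 3.28e-12). The siYAP libraries were close together and all far below the siNT libraries. PSMD1, which encodes the second large scaffold, had 4992, 5029.8 and 5130.4 normalized counts in the siYAP libraries, against 6430.4, 6194 and 6270.5 in the siNT libraries. The groups did not overlap, and the log2 fold change was -0.32 ± 0.042 (SE; limma, adjusted p = 9.58e-07). PSMD4, an intrinsic ubiquitin receptor of the base, fell to 2348 ± 63.7 normalized counts in siYAP, against 3242 ± 56.3 in siNT (mean ± SD, n = 3 each), a log2 fold change of -0.47. Per kilobase of exon and within a library, PSMD2 stood at 2.12 ± 0.0478 times PSMD1 in siYAP and 2.75 ± 0.132 times in siNT, with no overlap. The 2 scaffolds thus did not fall by the same amount.

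Of the 6 ATPases of the base, 5 fell, with a median log2 fold change of -0.38. PSMC3 (ENSG00000165916, chr11:47418769-47426473), the most abundant of them per kilobase, had 7288, 6949 and 7142 normalized counts in the siYAP libraries, against 9594, 10272 and 10420 in the siNT libraries. Every siYAP library was below every siNT library, and the log2 fold change was -0.50 ± 0.043 (SE; limma, adjusted p = 1.73e-09). PSMC4 and PSMC5 fell with log2 fold changes of -0.41 and -0.34, and PSMC2 with -0.18. PSMC5 shares 874 of its 4490 exon bases with FTSJ3 on the other strand, which had a log2 fold change of -0.56. In all, 16 members share exon bases with a listed gene on the other strand and 8 with an annotated gene on their own. The library kit keeps strand, the strand setting of the counting is not given in the sources used here, and the part of such shared bases was not tested. PSMC6 had 1854, 1939 and 1940.3 normalized counts in the siYAP libraries, against 2284, 1953 and 2041 in the siNT libraries. The groups did not overlap, yet siYAP replicate 3 and siNT replicate 2 nearly met, and the log2 fold change of -0.13 ± 0.055 (SE; limma, adjusted p = 0.0536) did not pass, while without siNT replicate 2 the adjusted p was 0.0156.

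PSMC1 stood apart from the other ATPases by its level. It had 33.5, 37.5 and 46.6 normalized counts in the siYAP libraries, against 49.2, 62.0 and 55.6 in the siNT libraries, with a log2 fold change of -0.50 ± 0.19 (SE; limma, adjusted p = 0.0270). These values are low beside the other ATPases, which lay between 1911 and 7126 normalized counts in siYAP and between 2093 and 10095 in siNT. PSMC1 has 13 pseudogenes named after it in the annotation, and 4671 of its 6161 exon bases lie opposite NRDE2, which had a log2 fold change of -0.22. Whether its reads were lost to these in counting was not tested. Its call was lost without siYAP replicate 1 (adjusted p = 0.111), without siYAP replicate 2 (0.0692), without siNT replicate 2 (0.102) and without siNT replicate 3 (0.0572).

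The lid, which holds the deubiquitinating enzyme PSMD14, had 6 of 8 members lower and 1 higher, with a median log2 fold change of -0.20. PSMD13, a structural lid subunit, had 3896, 3997 and 3883 normalized counts in the siYAP libraries, against 5183, 5139 and 5359 in the siNT libraries. The groups were well apart, with a log2 fold change of -0.41 ± 0.043 (SE; limma, adjusted p = 3.06e-08). PSMD3, another structural subunit, fell with a log2 fold change of -0.40, PSMD8 with -0.28, and PSMD14 with -0.21. PSMD11 and PSMD12 each fell with -0.18. PSMD6 averaged 2253 ± 42.3 normalized counts in siYAP and 2417 ± 90.1 in siNT, did not pass (adjusted p = 0.0774) and passed without siNT replicate 2 (0.0459).

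PSMD7 (ENSG00000103035, chr16:74296775-74306288), the partner that holds PSMD14 in its active pair, moved against the rest of the lid. It had 3994, 3829 and 3910.1 normalized counts in the siYAP libraries, against 3383, 3349.9 and 3318 in the siNT libraries. All 3 siYAP libraries were higher than all 3 siNT libraries, and the log2 fold change was 0.22 ± 0.044 (SE; limma, adjusted p = 1.47e-04). The PSMD2 to PSMD7 ratio, per kilobase of exon, was 1.43, 1.44 and 1.47 in the siYAP libraries, against 2.62, 2.71 and 2.86 in the siNT libraries. With 3 libraries on each side, the smallest p of an exact permutation test is 0.1, so no p is given for such ratios. PSMD7 shares 842 exon bases with a listed gene on the other strand that did not pass the test (log2 fold change 0.04, ENSG00000259972), and its 1 listed pseudogene, PSMD7P1, had at most 14.5 normalized counts in any library.

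In the core, the constitutive beta ring fell as a whole among its measured members, 6 of 6, with a median log2 fold change of -0.26. PSMB6, which carries the caspase-like site, had 5326, 5160.1 and 4948 normalized counts in the siYAP libraries, against 6304, 6879 and 6748 in the siNT libraries. The siYAP libraries were all lower, with a log2 fold change of -0.37 ± 0.046 (SE; limma, adjusted p = 4.68e-07). PSMB7, which carries the trypsin-like site, had 4792, 4538 and 4610.1 normalized counts in the siYAP libraries, against 5644, 5779.5 and 5841 in the siNT libraries. It fell with a log2 fold change of -0.31 ± 0.043 (SE; limma, adjusted p = 2.12e-06), with no overlap between groups. PSMB5, which carries the chymotrypsin-like site targeted by bortezomib, had 5513, 5042 and 5135 normalized counts in the siYAP libraries, against 5621, 5957 and 5831 in the siNT libraries. Its siYAP replicate 1 lay just under the lowest siNT library, and the log2 fold change of -0.15 ± 0.046 (SE; limma, adjusted p = 0.00740) was the smallest of the beta ring. PSMB5 lost its call without siYAP replicate 2 (adjusted p = 0.0693), at equal totals (0.234) and in limma without trend (0.0649). The non-catalytic PSMB1, PSMB2 and PSMB4 fell with log2 fold changes of -0.18, -0.34 and -0.21.

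The alpha ring was mixed, with 3 of 7 members lower, 1 higher and a median log2 fold change of -0.04. The lower members make up 42.9%, beside 28.1% of all tested genes. Of genes averaging 1000 or more normalized counts 43.3% fell, a share near that of the ring. PSMA6 had 259, 258 and 242 normalized counts in the siYAP libraries, against 296, 373 and 329 in the siNT libraries. The groups did not overlap, and the log2 fold change was -0.39 ± 0.092 (SE; limma, adjusted p = 0.00103). PSMA6 shares 14.1% of its exon bases with a gene on the same strand, ENSG00000258790 (log2 fold change 0.13, not called), and its part was not tested. PSMA5 and PSMA7 each fell with a log2 fold change of -0.26, and the siYAP and siNT libraries of each did not overlap. PSMA2 had 429.5, 449 and 448 normalized counts in the siYAP libraries, against 445, 366 and 336 in the siNT libraries. Its siNT replicate 1 was as high as the siYAP libraries, so the groups overlapped, and the log2 fold change was 0.22 ± 0.089 (SE; limma, adjusted p = 0.0396). It did not pass without siYAP replicate 2 (adjusted p = 0.10), siYAP replicate 3 (0.0792), siNT replicate 2 (0.104) or siNT replicate 3 (0.243), where its log2 fold change was 0.13. PSMA1, PSMA3 and PSMA4 had log2 fold changes of -0.03, 0.03 and -0.04 and did not pass.

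PSMB8 and PSMB9 of the immunoproteasome rose, while the catalytic subunits they replace fell. PSMB9 (ENSG00000240065, chr6:32844136-32859585), the counterpart of PSMB6, had 68.0, 75.0 and 73.2 normalized counts in the siYAP libraries, against 28.3, 47.0 and 36.3 in the siNT libraries. Behind these stood 75, 76 and 77 reads in the siYAP libraries, against 27, 44 and 30 in the siNT libraries. The groups did not overlap, and the log2 fold change was 0.96 ± 0.19 (SE; limma, adjusted p = 1.53e-04). PSMB8 (ENSG00000204264, chr6:32840717-32844703), the counterpart of PSMB5 and the neighbour of PSMB9 on chromosome 6, had 508, 515 and 503 normalized counts in the siYAP libraries, against 383, 402 and 421 in the siNT libraries. All siYAP libraries were higher, with a log2 fold change of 0.34 ± 0.071 (SE; limma, adjusted p = 2.96e-04). PSMB10, the counterpart of PSMB7, had 306, 292 and 269 normalized counts in the siYAP libraries, against 203, 282 and 250.1 in the siNT libraries. Its siNT replicate 2 lay above 1 siYAP library, and the log2 fold change of 0.25 ± 0.11 (SE; limma, adjusted p = 0.0503) fell just short of the threshold. It passed in 7 of 16 alternatives, among them without siNT replicate 2 (adjusted p = 0.00735), without siYAP replicate 3 (0.0328), at equal totals (0.0103) and in edgeR (0.0382).

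Set against their counterparts within each library and per kilobase of exon, the immunoproteasome transcripts stayed a small fraction. PSMB8 amounted to 5.43, 6.02 and 5.77% of PSMB5 in the siYAP libraries, against 4.02, 3.97 and 4.25% in the siNT libraries. PSMB9 amounted to 0.602, 0.685 and 0.698% of PSMB6 in the siYAP libraries, against 0.211, 0.322 and 0.253% in the siNT libraries. PSMB10 amounted to 6.16, 6.21 and 5.63% of PSMB7 in the siYAP libraries, against 3.47, 4.71 and 4.13% in the siNT libraries. In each of the 3 pairs the siYAP libraries were all above the siNT libraries. These ratios restate the changes of the single genes given above and are not separate support for them. PSMB10 itself overlapped between the groups, and its divisor PSMB7 was lower in siYAP. The percents depend on the union of all annotated exons, in which long alternative exons lower a level. It is 3072 bases for PSMB9 and 1448 for PSMB6, 2997 for PSMB8 and 1765 for PSMB5, and 1853 for PSMB10 and 1787 for PSMB7. How much this lowers the percents was not tested. The 3 genes together came to 3.83 ± 0.102% of PSMB5, PSMB6 and PSMB7 in siYAP and to 2.51 ± 0.180% in siNT (mean ± SD, n = 3 each). Of 5 immune markers, 3 were listed and called lower, and PTPRC and CD3E had no matched row. Their sum was low in both groups, 62.5 to 71.3 normalized counts in siYAP and 142.6 to 144.5 in siNT. Any part of immune cells in the immunoproteasome values was not tested. PSMB8 shares 757 of its 2997 exon bases with PSMB8-AS1 and PSMB9 on the other strand. PSMB9 shares 139 exon bases with PSMB8 on the other strand and 174 with PSMB8-AS1 on its own. PSMB8-AS1 averaged 18.3 ± 4.51 normalized counts in siYAP and 10.8 ± 2.98 in siNT and did not pass (log2 fold change 0.72, adjusted p = 0.0621). PSMB10 shares 34.8% of its exon bases with a gene on the same strand, ENSG00000261884, which had a log2 fold change of 0.15. The part of these overlaps was not tested.

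**Figure D4:**
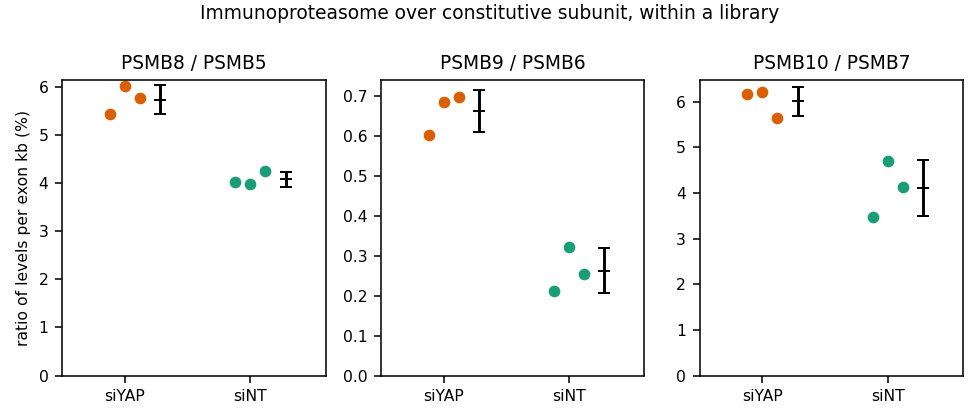
Level of each immunoproteasome gene as a percent of the constitutive subunit it replaces, per kilobase of exon, in each library (points), with siYAP left of siNT and a mark for the mean and SD of each group. The siYAP libraries lie above the siNT libraries in every panel, and PSMB9 stays under 1% of PSMB6 throughout.

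Assembly chaperones, which bring subunits together and then leave, split as well. PSMG3, which pairs with PSMG4 in a chaperone that acts on the alpha ring, had 1586, 1528 and 1450.5 normalized counts in the siYAP libraries, against 2111, 2354 and 2298 in the siNT libraries. The groups did not overlap, with a log2 fold change of -0.57 ± 0.054 (SE; limma, adjusted p = 7.41e-09), the largest fall after PSMD2. PSMG4 averaged 548 ± 39.3 normalized counts in siYAP and 563 ± 42.5 in siNT, with a log2 fold change of -0.04 that did not pass. PSMG2, of the other alpha ring pair, had 1121, 1186 and 1217 normalized counts in the siYAP libraries, against 1140.3, 1009 and 1118 in the siNT libraries. Its siNT replicate 1 reached into the siYAP range, and the log2 fold change of 0.11 ± 0.059 (SE; limma, adjusted p = 0.117) passed only without siNT replicate 1 (0.0385) and at equal totals (0.00748) among the settings tried. Its partner PSMG1 had -0.05 and did not pass. PSMG3 shares 60 exon bases with PSMG3-AS1 on the other strand, whose own change ran the other way at 1.12.

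The chaperones of the 19S base, PSMD5, PSMD9 and PSMD10, had 2 lower and none higher, with a median log2 fold change of -0.31. PSMD9 had 388, 375 and 333 normalized counts in the siYAP libraries, against 483, 543 and 495 in the siNT libraries. All siYAP libraries were lower, with a log2 fold change of -0.47 ± 0.079 (SE; limma, adjusted p = 2.42e-05). It shares 19.9% of its exon bases with genes on the same strand, of which CFAP251 had a log2 fold change of 0.79. PSMD10, also known as gankyrin, fell to 685 ± 51.9 normalized counts in siYAP, against 851 ± 45 in siNT, a log2 fold change of -0.31. PSMD5 had 2043, 2044 and 2185 normalized counts in the siYAP libraries, against 2168, 1923 and 1983 in the siNT libraries. The groups overlapped, with a log2 fold change of 0.05 ± 0.053 (SE; limma, adjusted p = 0.467).

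Of the alternative caps and the inhibitor, 2 of 5 fell (40%) and none rose, with a median log2 fold change of -0.07. All 5 averaged 1000 or more normalized counts, and 43.3% of all genes at that level fell, so the share that fell is near the background. PSME3, the nuclear activator that works without ubiquitin, had 7260.5, 7259 and 7542 normalized counts in the siYAP libraries, against 8309, 8227 and 8509.7 in the siNT libraries. The siYAP libraries were all lower, with a log2 fold change of -0.18 ± 0.041 (SE; limma, adjusted p = 5.87e-04). It shares 300 exon bases with BECN1 on the other strand, which fell with -1.02, and the part of this was not tested. PSME1 and PSME2 form the activator that interferon induces together with the immunoproteasome. PSME1 had 3690.0, 3613 and 3543 normalized counts in the siYAP libraries, against 3668, 3821 and 3566 in the siNT libraries. The groups overlapped, and the log2 fold change of -0.03 ± 0.045 (SE; limma, adjusted p = 0.637) did not pass. PSME2 had 2722, 2623 and 2539 normalized counts in the siYAP libraries, against 2848, 2872 and 2859 in the siNT libraries. Its siNT libraries were nearly equal and above all siYAP libraries, with a log2 fold change of -0.12 ± 0.046 (SE; limma, adjusted p = 0.0271). That call was lost without siYAP replicate 2 (adjusted p = 0.0885), siYAP replicate 3 (0.118), siNT replicate 2 (0.0686) or siNT replicate 3 (0.0671).

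PSME4, an activator linked to histone breakdown, had 4832, 5306 and 5437 normalized counts in the siYAP libraries, against 5764, 5188 and 5379 in the siNT libraries. Its groups overlapped, with a log2 fold change of -0.07 ± 0.051 (SE; limma, adjusted p = 0.260). PSMF1, an inhibitor of the isolated core, had 3222, 2938 and 3042 normalized counts in the siYAP libraries, against 2908, 2766 and 2874 in the siNT libraries. All siYAP libraries were above the siNT libraries, but the log2 fold change of 0.11 ± 0.048 (SE; limma, adjusted p = 0.0647) missed the threshold. PSMF1 passed in 4 of 16 alternatives, among them without siNT replicate 1 (0.0299), at equal totals (0.00146) and in edgeR (0.0335).

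Per kilobase of exon, the 30 measured constitutive 26S subunits, which are needed in equal numbers in the particle, spanned a wide range of levels. They ran from 6.36 (PSMC1) to 6971 (PSMA7) normalized counts per kilobase in siYAP, with a median of 1075, and from 9.02 (PSMC1) to 8355 (PSMA7) in siNT, with a median of 1254. PSMA7 averaged 6971 ± 453 per kilobase in siYAP and 8355 ± 279.9 in siNT. After it in the siNT order came PSMB6 with 3553 ± 131 in siYAP and 4588 ± 208 in siNT, and PSMC3 with 3131 ± 74.7 and 4436 ± 194. The libraries of PSMB6 and PSMC3 overlapped in siNT, so their order is within the spread. PSMD2 came next in siNT, where its libraries overlapped those of PSMB5 next to it. In siYAP PSMD2 averaged 2068 ± 48.0 per kilobase, under PSMB5 at 2963 ± 141, and in siNT 3336 ± 118 against 3288 ± 96.1. Over all 45 members, 24 of 44 neighbours in the siNT order overlapped.

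The lowest levels per kilobase in siNT belonged to PSMC1, PSMB9, PSMA6, PSMG4 and PSMD9. PSMA6 averaged 38.9 ± 1.5 per kilobase in siYAP and 51.1 ± 5.92 in siNT, PSMA2 82.9 ± 2.06 and 71.6 ± 10.6, and PSMA1 204 ± 9.29 and 209 ± 14.4, far under the other alpha ring genes. All 3 share exon bases with another annotated gene on their own strand, 14.1%, 14.6% and 24.7% of them, and PSMA6 has 4 named pseudogenes and PSMA2 has 3. Exon bases count the union of all annotated exons, so long alternative exons lower a level, and none of this was tested as a source of the low levels.

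**Figure D5:**
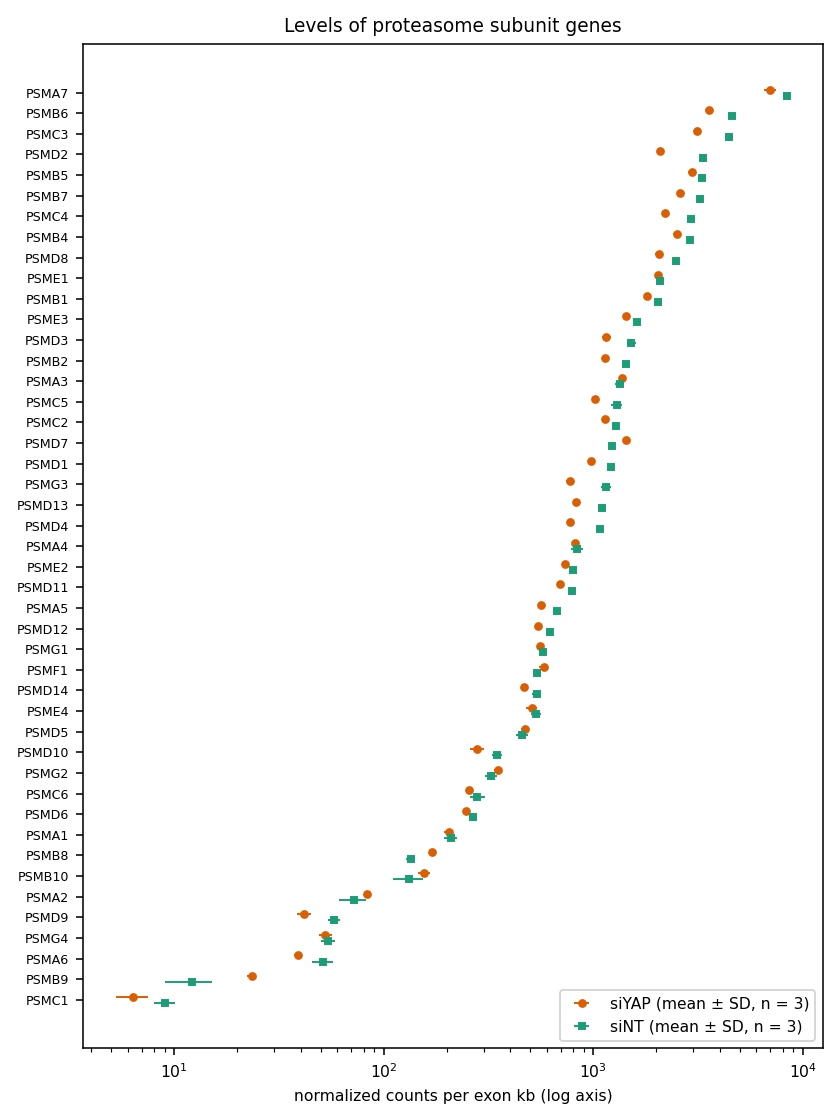
Mean level of each member per kilobase of exon on a log axis, siYAP and siNT, with bars for the SD over 3 libraries, ordered by the level in siNT. PSMA7 stands highest at 6971 in siYAP and 8355 in siNT, and PSMC1 lowest at 6.36 and 9.02.

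Genes that work with the proteasome are given for comparison, from lists of other genes. Their counts stand beside 28.1% of all tested genes that fell and 28.6% that rose, or 43.3% and 29.2% of those averaging 1000 or more normalized counts. Of 14 associated factors, 6 fell, a share near that of genes at the higher level, and none rose, with a median log2 fold change of -0.10. AKIRIN2, which carries proteasomes into the nucleus, fell to 931 ± 66.6 normalized counts in siYAP, against 1470.2 ± 112 in siNT, a log2 fold change of -0.66 ± 0.063 (SE; limma, adjusted p = 9.91e-09). ADRM1, the ubiquitin receptor that sits on PSMD1, fell to 6514 ± 313, against 9246 ± 668, with -0.50 ± 0.051 (SE; limma, adjusted p = 1.96e-08). ZFAND2A, a proteasome-binding factor induced by arsenite, fell with -0.67 and UBE3C, a proteasome-bound ubiquitin ligase, with -0.34. The core maturation factor POMP had -0.11 and did not pass, but did without siNT replicate 2 (adjusted p = 0.0356).

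Of 10 genes that regulate subunit transcription, 5 fell and 1 rose, with a median log2 fold change of -0.12. NFE2L1 fell to 6814 ± 153 normalized counts in siYAP, against 8808 ± 369 in siNT, a log2 fold change of -0.37 ± 0.043 (SE; limma, adjusted p = 1.85e-07). NFE2L2, the related factor of the oxidative stress response, fell with -0.38, and MAFF, a small partner protein of both, with -0.66. NGLY1, the enzyme that removes sugars from NFE2L1 before it acts, rose to 759.9 ± 35.5 normalized counts in siYAP, against 520.1 ± 49.5 in siNT, a log2 fold change of 0.55 ± 0.073 (SE; limma, adjusted p = 1.15e-06). Transcript levels of these factors were measured and not their activity.

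Among 12 genes for ubiquitin, its activation and the shuttles that bring substrates to PSMD2 and its neighbours, 7 fell and 2 rose, with a median of -0.18. UBB, a polyubiquitin gene, fell with -0.39 ± 0.043 (SE; limma, adjusted p = 7.12e-08), and the chaperone BAG6 with -0.30. All 11 partners in class I presentation were called, 5 lower and 6 higher, with a median of 0.19. TAP1, the peptide transporter gene whose start lies beside that of PSMB9, rose to 1186 ± 31.4 normalized counts in siYAP, against 903 ± 53.6 in siNT, a log2 fold change of 0.39 ± 0.058 (SE; limma, adjusted p = 4.80e-06). TAPBP, the tapasin gene, and ERAP1, a peptide trimmer, rose with 0.57 and 0.47. TAP2 and B2M fell with -0.49 and -0.35. Of transcription factors that induce these genes, NLRC5 rose with 0.55 and IRF1 fell with -0.20. IRF1 lost its call without siNT replicate 3 (adjusted p = 0.0807).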

How the data were processed

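Poly(A) RNA was sequenced from 6 libraries with a strand-keeping kit, per the labels' protocols. The submitters' processing notes name FastQC, HISAT2, HTSeq and DESeq2 and the builds hg19 and mm9. Versions, what each build was used for, and the gene models and strand setting of the counting are not given in the labels. The deposited values are a signal per gene that the authors normalized: in each library 100% were whole reads, within 0.01 of a read, times 1 factor (0.906 to 1.21 normalized counts per read). Counts of reads were recovered by that factor for the tests below.

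Values were taken as log2(value + 1) and fitted by group with limma 3.58.1 (trend, robust) in R 4.3.3, for genes of at least 1 in 3 libraries, which were 17200 of 17211. P-values were adjusted by Benjamini-Hochberg over all of them and called under 0.05. Fold changes on this scale understate changes of low genes. SDs are over normalized counts. Alternatives were TMM, upper-quartile and equal-total scaling, no filter or a mean of at least 10, a pseudocount of 0.1, limma with no trend, a term for the replicate number, edgeR 4.0.16 and DESeq2 1.42.0 on the recovered reads, and each library left out. The limma step was tested on simulated data.

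Symbols came from a table of human gene names and from GENCODE 29 (16743 of 17211 rows), which also gave exon lengths and shared bases on GRCh38. PSMB3 had no row matched by these tables. Pearson correlations of log2 values were 0.992 to 0.994 within groups and 0.974 to 0.977 between them. Replicates were not copies of 1 library (chi-square over degrees of freedom 2.64 to 7.10). Individual values are given for YAP1, the catalytic and immunoproteasome pairs, activators and, in each other subcomplex, the member with the highest and the lowest fold change, and for PSMC1, added after its low level was seen. From each other list up to 4 genes were taken by smallest p, some of which are not reported here, and TAP1, POMP, NLRC5 and IRF1 were added after their values were seen. The members and lists were chosen with earlier results of these data known.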

Additional observations from a re-analysis of the deposited data

How the results depend on the processing

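In 16 alternatives, no called member changed direction. Called members numbered 22 to 28 lower and 3 to 9 higher. At equal totals 9 members were called higher in place of 4, and 22 lower, beside 6050 of all genes higher and 3700 lower. Leaving out each library in turn gave 25 to 28 members lower and 3 to 6 higher, and 4380 to 4876 of all genes lower and 4376 to 4942 higher. On the recovered reads, edgeR called 28 members lower and 6 higher, and DESeq2 27 and 3. Among all genes edgeR called 4659 lower and 4923 higher, and DESeq2 4385 and 4393. Of the 28 members called lower, 22 kept the call in every alternative, as did 3 of the 4 called higher. The exceptions were PSMB1, PSMC2 and PSMD12 (equal totals only), PSMB5 (3 alternatives), PSMC1 (6), PSME2 (8) and PSMA2 (7).

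With the replicate number as a replicate block, 27 members were called lower and 3 higher, and 4487 of all genes lower and 4654 higher. Same-numbered libraries did not deviate together more than others (r of -0.0962, -0.00873 and 0.00831, against -0.0911 to 0.101 for pairs with different numbers). With 3 libraries in a group, these values cannot show whether same-numbered libraries shared a day or passage. Depth limited PSMB9, which rests on 27 to 77 reads per library, and PSMC1. Reads that overlapping genes and pseudogenes may take or give could not be assigned from the deposited values.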

Other observations

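Among the 9 dropped rows named after proteasome genes, PSMG3-AS1, a long noncoding RNA beside PSMG3, averaged 138 ± 4.51 normalized counts in siYAP and 63.2 ± 9.45 in siNT, a log2 fold change of 1.12 ± 0.14 (SE; limma, adjusted p = 4.40e-07). PSMA3-AS1 averaged 598 ± 44.6 in siYAP and 482 ± 24.3 in siNT, with 0.31 ± 0.073 (SE; limma, adjusted p = 9.96e-04), while PSMA3 itself did not pass. PSMC3IP, which encodes a recombination factor that binds PSMC3, averaged 495 ± 46.0 in siYAP and 789.7 ± 12.3 in siNT, with -0.68 ± 0.071 (SE; limma, adjusted p = 3.28e-08).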
